A study of Mus musculus with 6 samples.

Results

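MHC class I presentation carries peptides made inside a cell to its surface. The proteasome, including the immunoproteasome subunit Psmb8, cuts proteins into peptides, and the transporter made of Tap1 and Tap2 pumps them into the endoplasmic reticulum. There tapasin (Tapbp) helps load them onto a heavy chain paired with beta-2 microglobulin (B2m), and the complex travels to the surface for inspection by CD8 T cells. H2-K1 and H2-D1 encode classical heavy chains, and H2-Q2, H2-Q10 and H2-T23 encode nonclassical ones. Of these, H2-T23 makes Qa-1, a ligand of NK cell receptors, and H2-Q10 is best known as a protein secreted by the liver.

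These 10 genes of 54232 in the count table were chosen by symbol. The other 8 were listed for their roles, while H2-Q2 and H2-Q10 were selected on their large falls in the very contrast described here. Values of that pair are therefore given as a description, with no test. The source was RNA-seq of primary smooth muscle cells from the oviduct of mice aged 8 to 12 weeks on day 2 of pregnancy, with 3 libraries from WT mice and 3 from Pbrm1 cKO mice. The question was which genes differ when Pbrm1 is lost, whose protein belongs to the PBAF form of the SWI/SNF chromatin remodelers. Cells were digested from minced oviduct, filtered and kept in serum for 4 h and then a further 2 h before RNA was taken.

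In the study the cKO mice carried floxed Pbrm1 and a cre in the progesterone receptor gene (PR-IRES-cre), so deletion is limited to cells that have expressed that gene. The labels call the controls WT, whereas a legend of the study names floxed mice. No label gives a strain, an H2 haplotype, or whether a library was 1 animal or a pool, so p-values below measure the spread between these libraries, which may be technical. Mouse strains differ in their H2-K1 and H2-D1 alleles and in which Q region genes they carry, while reads were placed on the reference genome. How the alleles of these mice differ from the reference was not tested, and a haplotype that differed between the genotypes cannot be told apart from the genotype.

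Library totals ran from 15390818 to 18947947 counts, so that 3 counts corresponded to 0.158 to 0.195 CPM (counts relative to the library total, with scaling factors applied). Pbrm1 itself was at 170 to 183 CPM in WT and at 42.7 to 50.6 CPM in cKO, or 26.0% of WT (edgeR adjusted p = 9.13e-11). Markers of smooth muscle were present, with Acta2 averaging 1285 ± 33.5 CPM in WT against 1534 ± 131 in cKO and Myh11 averaging 88.1 ± 0.905 against 147 ± 13.1 CPM (SD, n = 3). Markers of leukocytes, epithelium, fibroblasts, endothelium and mesothelium were present too, with values given below. In bulk RNA fewer cells of a type and less RNA per cell cannot be told apart.

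The heavy chain genes resemble one another, which bears on how reads are assigned. The coding sequence of H2-K1 was 91.4% identical to that of H2-D1, 87.8% to H2-Q10, 85.3% to H2-Q2 and 82.4% to H2-T23. To show this, 2 stretches of 60 coding bases are printed from the GENCODE M21 transcripts on GRCm38, the most and the least alike of the 5 heavy chains. Both lie on chromosome 17, and capitals mark bases that differ from H2-K1. The most alike stretch lies in exon 4 of each gene, which encodes the conserved alpha-3 domain; for H2-K1 it is chr17:33997454-33997513 on the minus strand.

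H2-K1: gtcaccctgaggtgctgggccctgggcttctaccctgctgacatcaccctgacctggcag
H2-D1: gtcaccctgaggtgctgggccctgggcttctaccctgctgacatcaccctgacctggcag
H2-Q2: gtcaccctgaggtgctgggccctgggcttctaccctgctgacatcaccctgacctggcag
H2-Q10: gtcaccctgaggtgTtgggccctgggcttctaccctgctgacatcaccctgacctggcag
H2-T23: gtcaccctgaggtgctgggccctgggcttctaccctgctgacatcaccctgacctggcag

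In that stretch H2-D1, H2-Q2 and H2-T23 had 0 differences from H2-K1 and H2-Q10 had 1. A read of H2-K1, H2-D1, H2-Q2 or H2-T23 lying wholly inside it could not be placed on 1 gene. The least alike stretch lies in exon 3, in the peptide-binding part of the molecule, at chr17:33999348-33999407 for H2-K1, also on the minus strand.

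H2-K1: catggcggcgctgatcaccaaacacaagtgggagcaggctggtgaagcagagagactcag
H2-D1: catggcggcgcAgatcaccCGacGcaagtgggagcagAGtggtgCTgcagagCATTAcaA
H2-Q2: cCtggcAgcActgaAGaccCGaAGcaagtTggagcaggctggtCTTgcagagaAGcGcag
H2-Q10: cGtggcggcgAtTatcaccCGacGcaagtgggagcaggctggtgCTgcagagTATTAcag
H2-T23: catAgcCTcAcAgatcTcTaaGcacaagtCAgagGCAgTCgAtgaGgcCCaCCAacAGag

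There H2-Q10 differed from H2-K1 at 13 bases, H2-D1 at 14, H2-Q2 at 16 and H2-T23 at 24. Over whole transcripts, the share of 75-base stretches found in no other gene was 96.9% for H2-K1, 94.4% for H2-D1, 94.1% for H2-T23, 91.9% for H2-Q2 and 87.5% for H2-Q10. For stretches of 50 bases these shares were 90.4%, 87.2%, 85.5%, 83.9% and 80.9%, in the same order. B2m was at 100% for both lengths. The share was lowest for Tapbp among the 10 genes, at 81.4%, where the sequence shared is that of Gm19412 on the opposite strand, and strand was used in counting. Among other heavy chains it fell to 60% for H2-T22 and 64% for H2-T10, where much of the sequence shared is again that of genes on the opposite strand, A930015D03Rik (25.2%) and BC023719 (23.7%). H2-T10 also matches H2-T22 at 96.9% identity over its whole length, so values of these 2 genes are uncertain, as are those of H2-Q4, H2-Q5 and H2-Q6 (78.8% to 79.3%). For H2-Q4 the opposite-strand gene Gm11131 shares 13.4%. H2-Q7 was at 83% and shared most with H2-Q10 (8.88%), as H2-Q10 did with H2-Q7 (9.07%). The comparison used exact matches among annotated transcripts of the reference and says nothing of other alleles.

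**Figure D1:**
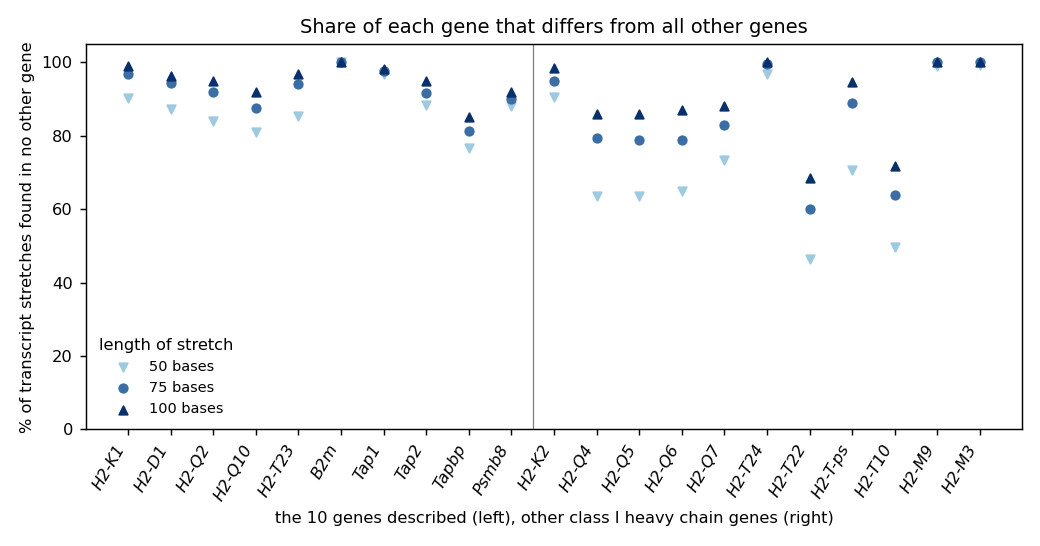
Share of all stretches of 50, 75 or 100 bases of each gene's transcripts that occur in no other annotated gene (y axis, percent), for the 10 genes described (left of the line) and other class I heavy chain genes (right). At 75 bases the 5 heavy chains described lie between 87.5% and 96.9%, B2m at 100%, and H2-T22 and H2-T10 lowest at 60% and 64%.

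Per kb of exon, a rough scale for setting levels of different genes side by side, B2m was the most abundant in WT at 339 ± 9.54 CPM per kb (SD, n = 3). H2-D1 followed at 90.7 ± 1.46, H2-K1 at 43.9 ± 3.01, Tapbp at 18.2 ± 0.659 and Tap2 at 8.83 ± 0.182 CPM per kb. H2-T23 (4.90 ± 0.329), Tap1 (4.48 ± 0.142) and Psmb8 (4.46 ± 0.461 CPM per kb) did not differ beyond their spread. H2-Q2 (3.83 ± 0.271) and H2-Q10 (1.64 ± 0.352 CPM per kb) were the lowest. In cKO H2-D1 was still above H2-K1 on average, at 87.1 ± 7.40 and 77.8 ± 3.63 CPM per kb, but their ranges overlapped. H2-T23 (11.2 ± 2.23) stood above Tap2 (9.56 ± 0.875 CPM per kb) on average, within their spread, and H2-Q10 (0.169) above H2-Q2 (0.0765 CPM per kb). The length took in all annotated exons of a gene, 2608 bases for H2-K1 and 2579 for H2-D1. The transcript of each with the longest coding sequence measured 1619 and 2102 bases. Orders of genes close in level, such as H2-D1 and H2-K1 in cKO, therefore depend on the length used.

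Of the 8 genes listed for their roles, 6 were called higher in cKO at an edgeR adjusted p-value under 0.05 (H2-K1, H2-T23, B2m, Tap1, Tapbp and Psmb8). H2-D1 and Tap2 were not called. Across all 15376 genes tested, 43.7% were called, 21.9% higher and 21.8% lower, so a call on its own was common in this contrast. The median log2 fold change of the 8 genes was 0.57, beside 0.0016 over all genes tested. For 5 of the 8 every cKO library exceeded every WT library in CPM, and 26.6% of tested genes did so.

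**Figure D2:**
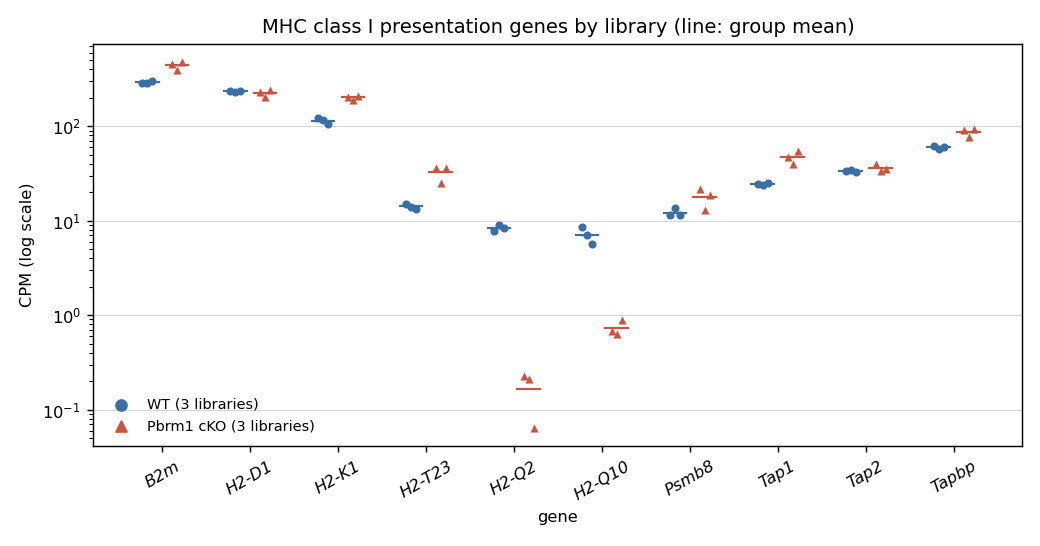
CPM of the 10 genes in each library (y axis, log scale), with WT as circles and Pbrm1 cKO as triangles and a line at each group mean. Points of the groups lie apart for B2m, H2-K1, H2-T23, Tap1 and Tapbp, all higher in cKO, and for H2-Q2 and H2-Q10, both lower, and overlap for H2-D1, Tap2 and Psmb8.

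B2m (ENSMUSG00000060802.8; GRCm38 chromosome 2, 122147686 to 122153083, plus strand) encodes the light chain shared by all of these heavy chains. It was at 289, 285 and 301 CPM in WT replicates 1, 2 and 3 and at 457, 397 and 476 CPM in cKO replicates 1, 2 and 3. Every cKO library lay above every WT library. This gave a log2 fold change of 0.60 with SE 0.060 (edgeR adjusted p = 3.42e-06).

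H2-K1 (ENSMUSG00000061232.15; chromosome 17, 33996017 to 34000333, minus strand) was at 122, 116 and 106 CPM in WT and at 206, 192 and 210 CPM in cKO. The groups did not overlap, and the cKO mean was 1.77 times that of WT (log2 fold change 0.82 with SE 0.056, adjusted p = 1.17e-07 by edgeR). H2-D1 (ENSMUSG00000073411.11; chromosome 17, 35262730 to 35267499, plus strand) encodes the other classical heavy chain. It was at 237, 230 and 235 CPM in WT and at 230, 203 and 240 CPM in cKO, so the groups overlapped and it was not called (log2 fold change -0.06 with SE 0.057, adjusted p = 0.421 by edgeR).

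The balance between both classical heavy chains therefore differed. Counts of H2-K1 were 0.490 ± 0.0321 of those of H2-D1 in WT and 0.905 ± 0.0361 in cKO (SD, n = 3), with 0.453 to 0.513 across WT libraries and 0.875 to 0.945 across cKO libraries. Relative to B2m, H2-D1 went from 0.802 ± 0.0213 to 0.507 ± 0.00471, while H2-K1 went from 0.393 ± 0.0357 to 0.459 ± 0.0225. These ratios are taken within a library and do not depend on the scaling between libraries.

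H2-T23 (ENSMUSG00000067212.8; chromosome 17, 36029773 to 36032855, minus strand), which encodes Qa-1, was at 15.2, 14 and 13.3 CPM in WT and at 36.2, 25.0 and 36.1 CPM in cKO. All cKO libraries were higher, replicate 2 the least, and the log2 fold change of 1.19 (SE 0.13, edgeR adjusted p = 6.11e-06) was the largest rise among the 8 genes listed by role.

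H2-Q2 (ENSMUSG00000091705.8; chromosome 17, 35342242 to 35346762, plus strand) held 132, 168 and 142 counts in the WT libraries, against 4, 4 and 1 in cKO. In sum this was 442 counts against 9, or 2.06% of WT after scaling, with a 95% exact interval of 0.934% to 3.94% that covers counting error only. The cKO level of 0.064 to 0.225 CPM lay near the 3 counts taken as the floor. H2-Q10 (ENSMUSG00000067235.14; chromosome 17, 35470089 to 35474563, plus strand) held 147, 133 and 96 counts in WT and 12, 12 and 14 in cKO. Its sums of 376 and 38 counts gave 10.2% of WT (95% exact interval 7.11% to 14.3%), and WT libraries spread more widely, from 5.61 to 8.67 CPM. Since these genes were picked for these falls, the size of the falls is no result of a test.

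What lies around them was not used to pick them, but some of it shares sequence with them. Between H2-D1 and H2-Q10 the table holds further Q region genes. H2-Q1, upstream of H2-Q2, was at 7, 6 and 13 counts in WT and at 0, 0 and 1 in cKO, below the low-count filter (3.89% of WT, 95% exact interval 0.0948% to 23.7%, counting error only). H2-Q2 shares more of its 75-base stretches with H2-Q1 than with any other gene (8.07%). Of 6 gene models in this stretch that carry no heavy chain symbol, Gm18733 had 18, 12 and 20 counts in WT and 1, 2 and 1 in cKO, while Gm11131 had 5, 9 and 8 in WT and 19, 8 and 8 in cKO. Both, like H2-Q1 and H2-Q3, were chosen for mention after their values were seen. The other 4 held at most 7 counts in any library, and their groups overlapped. H2-Q4 (log2 fold change 0.03, SE 0.13, adjusted p = 0.879), H2-Q5 (-0.56, SE 0.33, adjusted p = 0.190) and H2-Q6 (0.02, SE 0.13, adjusted p = 0.931) lie between H2-Q2 and H2-Q10 and were not called by edgeR. H2-Q7, which encodes the Qa-2 antigen, lies between the same 2 genes and rose instead, from 35, 40 and 30 counts in WT to 113, 103 and 103 in cKO (log2 fold change 1.62 with SE 0.16, adjusted p = 3.28e-06 by edgeR). H2-Q7 and H2-Q10 each share more 75-base stretches with the other than with any other gene. How far this bears on their opposite directions was not tested. H2-Q3 had 0 counts in all libraries. The low cKO values of H2-Q2, H2-Q10 and H2-Q1 thus stood next to genes of the same cluster that were not called or rose.

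**Figure D3:**
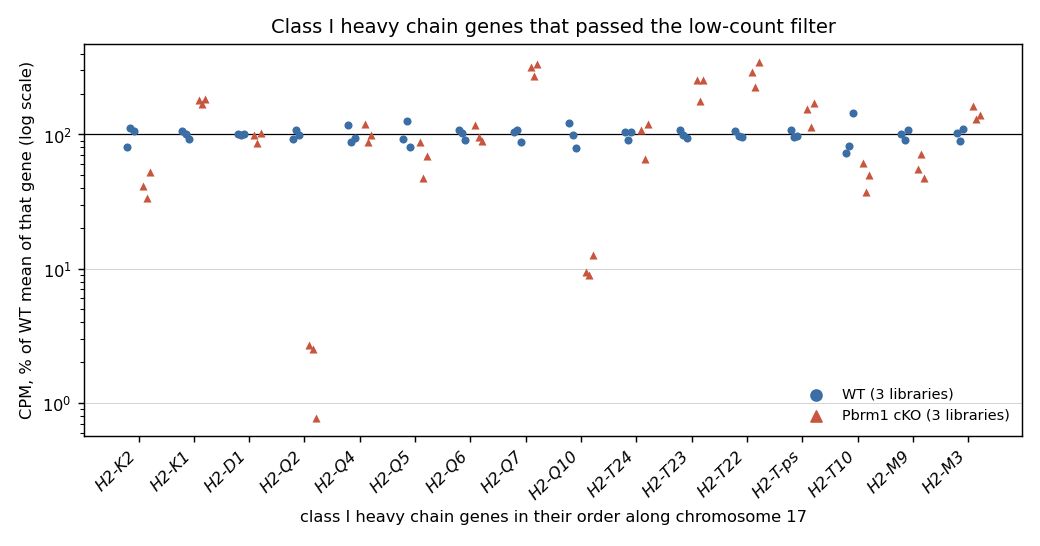
Level of each class I heavy chain gene that passed the low-count filter, in every library, as a percentage of its own WT mean (y axis, log scale), in chromosomal order on chromosome 17 (x axis). WT libraries are circles and Pbrm1 cKO libraries triangles; H2-Q2 and H2-Q10, chosen for their falls, stand far below 100% in cKO while H2-Q4 and H2-Q6 between them stay near it and H2-Q7 lies above.

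The table listed 32 rows with heavy chain symbols, of which 16 passed the filter and 9 had 0 counts in every library. Leaving out H2-Q2 and H2-Q10, 8 of 14 tested were called, 6 higher and 2 lower, and the median log2 fold change was 0.02. Of all tested genes 43.7% were called, 21.9% higher and 21.8% lower. H2-T22 rose from 16.4 ± 0.985 to 47.2 ± 10.0 CPM (SD, n = 3; log2 fold change 1.52 with SE 0.13, adjusted p = 6.96e-07 by edgeR), and H2-M3, which presents formylated peptides, from 8.21 ± 0.828 to 11.8 ± 1.34 CPM (0.53, SE 0.12, edgeR adjusted p = 0.00222). The pseudogene H2-T-ps was also higher (0.54, edgeR adjusted p = 0.0319), a call lost in 6 of 13 alternatives, DESeq2 among them (adjusted p = 0.0881). H2-K2 was lower (-1.24, SE 0.33, edgeR adjusted p = 0.00732, DESeq2 0.042) on 15, 23 and 20 counts in WT and 8, 7 and 9 in cKO. With fewer than 10 counts in every cKO library, it passed the low-count filter through its WT libraries. Such a filter favors a fall, so this call, 1 of the 2 lower, is given as a description. H2-T10 was lower too, with 38, 48 and 77 counts in WT and 34, 22 and 24 in cKO (-1.01, SE 0.28, edgeR adjusted p = 0.0108); without WT replicate 3, its highest library, the log2 fold change was -0.65 and the adjusted p-value 0.0676. H2-T22 and H2-T10, which match at 96.9% identity, thus went in opposite directions, and their values are uncertain as stated above. Whether reads were shifted between these 2 genes was not tested. H2-T24 (-0.04, adjusted p = 0.874) and H2-M9 (-0.76, adjusted p = 0.0798) were not called by edgeR.

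Tap1 (ENSMUSG00000037321.17; chromosome 17, 34187553 to 34197225, plus strand) and Tap2 (ENSMUSG00000024339.12; chromosome 17, 34203527 to 34216321, plus strand) encode both subunits of the peptide transporter. Tap1 was at 24.3, 23.9 and 25.4 CPM in WT and at 47.7, 39.7 and 54.4 CPM in cKO, with every cKO library higher (log2 fold change 0.94 with SE 0.096, adjusted p = 3.96e-06 by edgeR). Tap2 was at 33.3, 34.1 and 32.7 CPM in WT and at 39.8, 33.4 and 35.3 CPM in cKO. Its groups overlapped, and it was not called (log2 fold change 0.11 with SE 0.071, adjusted p = 0.218 by edgeR).

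Psmb8 (ENSMUSG00000024338.14; chromosome 17, 34197721 to 34201454, plus strand), which lies between Tap1 and Tap2, was at 11.5, 13.7 and 11.5 CPM in WT and at 21.5, 12.9 and 18.8 CPM in cKO. Replicate 2 of cKO lay within the WT range. The call (log2 fold change 0.53 with SE 0.15, adjusted p = 0.0120 by edgeR) was lost without WT replicate 1 (adjusted p = 0.0503), WT replicate 3 (0.0553) or cKO replicate 1 (0.0779).

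The wider list of peptide supply genes held 11 members, Tap1, Tap2 and Psmb8 included, of which 8 were called higher and 1 lower (median log2 fold change 0.43). Across all tested genes 21.9% were called higher and 21.8% lower. The proteasome activator subunits Psme1 (0.64) and Psme2 (0.70), the immunoproteasome subunits Psmb9 (0.63) and Psmb10 (0.31), and the peptide-trimming enzyme Erap1 (0.43) were higher on the log2 scale, with edgeR adjusted p-values of 2.88e-05, 1.20e-05, 0.0173, 0.00769 and 4.57e-04. Among the standard catalytic subunits that the immunoproteasome subunits replace, Psmb6 was higher (0.23, edgeR adjusted p = 0.00105), Psmb5 was lower (-0.24, edgeR adjusted p = 0.00475) and Psmb7 was not called. Psmb9 ranged from 1.82 to 2.81 CPM in WT and from 3.23 to 4.05 in cKO, and its call was lost in 3 of the 6 fits that left out 1 library (adjusted p-values up to 0.0913).

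Tapbp (ENSMUSG00000024308.14; chromosome 17, 33915899 to 33929288, plus strand), the tapasin gene, was at 62.4, 58.0 and 60 CPM in WT and at 91.7, 76.3 and 94.6 CPM in cKO. The groups did not overlap (log2 fold change 0.54 with SE 0.072, adjusted p = 4.65e-05 by edgeR). It was the 1 called of 6 peptide loading genes, while 43.7% of all tested genes were called. The other 5 encode chaperones and folding factors of the endoplasmic reticulum or, in Tapbpl, a relative of tapasin, and their log2 fold changes ran from -0.10 to 0.09. Without cKO replicate 2, 3 of the 6 were called, with Calr (adjusted p = 0.0139) and Canx (0.0457) added.

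Genes that act on class I transcription were examined as a list of 12, which holds the class I transactivator Nlrc5, factors of the RFX, IRF and NF-kB families, and the receptor chains and kinases of interferon gamma signaling. Of these, 9 were called, all higher (median log2 fold change 0.30), beside 21.9% of all tested genes called higher. Nlrc5 was at 5.78, 5.71 and 4.56 CPM in WT libraries against 8.14, 7.73 and 9.89 in cKO, with no overlap between the groups (log2 fold change 0.67 with SE 0.14, adjusted p = 0.00133 by edgeR).

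The interferon gamma receptor genes Ifngr1 (log2 fold change 0.53) and Ifngr2 (0.51), the kinase genes Jak1 (0.27) and Jak2 (0.58), and Irf1 (0.50) were also higher. Rfx5 (0.34), Rela (0.22) and Nfkb1 (0.17) were called at smaller log2 fold changes, and the calls of Rfx5 and Nfkb1 were lost without WT replicate 3 (adjusted p = 0.0586 and 0.0558). Rfxap, Rfxank and Irf2 were not called (log2 fold changes from -0.05 to 0.18). Class I-like genes outside the H2 region were mixed: Fcgrt (0.80) and Mr1 (0.38) were higher, Cd1d1 was lower (-0.45, edgeR adjusted p = 0.0266; DESeq2 0.0676), Hfe and Procr were not called, and Azgp1 had 0 counts in all libraries.

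**Figure D4:**
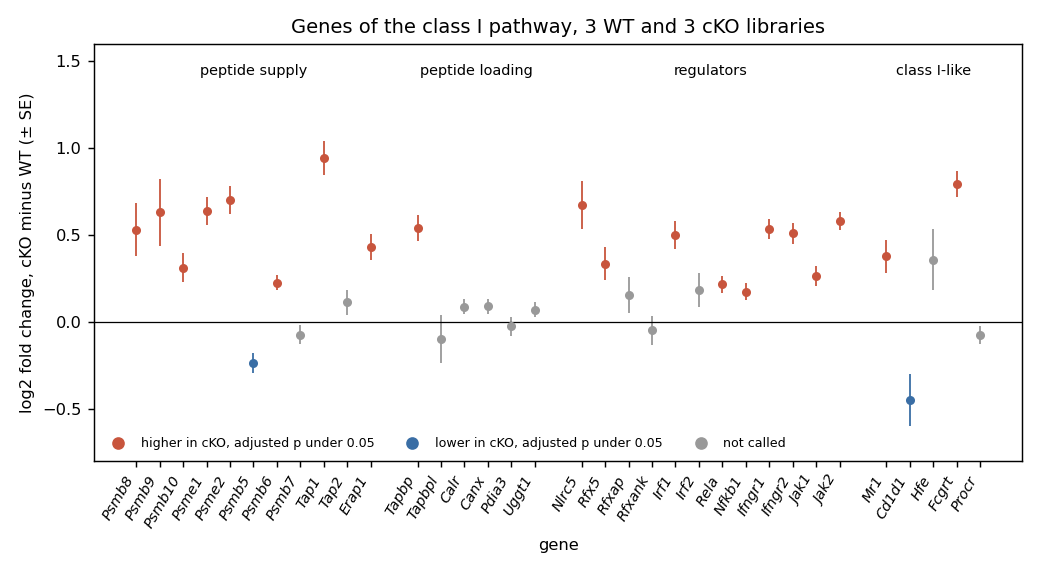
Log2 fold change of cKO over WT with its SE (y axis) for genes of peptide supply, peptide loading, class I regulation and class I-like molecules. Red points were called higher, blue points lower and grey points not called. Of the regulators 9 of 12 are red, and of the peptide loading genes only Tapbp is, beside 21.9% of all tested genes called higher.

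Promoter sequences are printed for H2-K1 and H2-D1, of which the first rose and the second was not called, and for B2m and H2-T23, which rose. They come from RefSeq on GRCm38.p6 and run from 250 bases before to 50 after the annotated start; 9 of the 10 genes had an entry. Capitals mark matches to the core of the interferon-stimulated response element (GAAANNGAA) or to the NF-kB consensus, on either strand. The windows are chr17:34000298-34000597 (minus strand) for H2-K1, chr17:35262844-35263143 (plus strand) for H2-D1, chr2:122147437-122147736 (plus strand) for B2m and chr17:36032652-36032951 (minus strand) for H2-T23.

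H2-K1: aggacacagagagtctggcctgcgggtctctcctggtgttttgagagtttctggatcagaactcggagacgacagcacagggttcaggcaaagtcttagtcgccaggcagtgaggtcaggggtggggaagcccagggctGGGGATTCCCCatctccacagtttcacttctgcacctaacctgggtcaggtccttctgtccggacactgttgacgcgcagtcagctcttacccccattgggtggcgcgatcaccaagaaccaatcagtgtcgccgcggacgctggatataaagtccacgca
H2-D1: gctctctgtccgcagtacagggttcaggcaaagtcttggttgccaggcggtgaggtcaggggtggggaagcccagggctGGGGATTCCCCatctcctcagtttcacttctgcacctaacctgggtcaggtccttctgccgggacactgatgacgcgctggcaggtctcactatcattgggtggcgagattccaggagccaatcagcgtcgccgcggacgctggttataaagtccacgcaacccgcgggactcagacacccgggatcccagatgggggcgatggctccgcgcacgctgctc
B2m: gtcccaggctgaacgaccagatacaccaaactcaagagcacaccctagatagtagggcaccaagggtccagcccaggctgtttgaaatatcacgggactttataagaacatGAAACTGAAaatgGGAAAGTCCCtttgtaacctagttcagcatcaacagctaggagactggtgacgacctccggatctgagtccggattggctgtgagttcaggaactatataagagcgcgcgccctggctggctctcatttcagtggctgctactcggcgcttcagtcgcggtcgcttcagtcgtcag
H2-T23: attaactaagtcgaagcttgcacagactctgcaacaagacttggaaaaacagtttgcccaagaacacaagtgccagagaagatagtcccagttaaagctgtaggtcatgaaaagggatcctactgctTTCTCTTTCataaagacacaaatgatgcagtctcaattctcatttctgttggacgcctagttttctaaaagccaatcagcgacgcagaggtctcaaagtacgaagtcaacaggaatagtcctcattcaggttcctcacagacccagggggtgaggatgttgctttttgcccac

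H2-K1 and H2-D1 hold the same NF-kB letters, 1 stretch that is read on both strands as overlapping matches, at different distances from their annotated starts. B2m holds matches to both motifs and H2-T23 to the interferon core only. Among the 9 genes the interferon core GAAANNGAA was matched in 2 and the NF-kB consensus in 3 (H2-K1, H2-D1 and B2m), while 8.56% and 8.46% of 32851 RefSeq promoters held them. The X2 box core TGACG was matched in 4 of the 9 (20.8% of all promoters) and the CCAAT box in 7 (37.4%). H2-Q2 and Tapbp had CCAAT matches alone, and H2-Q10 and Psmb8 had none of these motifs. Of these, Tapbp and Psmb8 were called higher, so both patterns occurred in genes that rose and in genes chosen for falls. A match is a run of letters and not a shown binding site. Only these letters were searched, so an absent match does not show that a gene lacks an interferon element of other spelling.

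Leukocytes carry abundant class I molecules, so their markers were set beside these values. Of 14 leukocyte markers, 11 passed the filter and all 11 were called higher in cKO (median log2 fold change 0.74), beside 21.9% of all tested genes. Ptprc, the pan-leukocyte marker CD45, averaged 15 ± 0.567 CPM in WT against 30.6 ± 2.70 in cKO (SD, n = 3). The T, B and NK cell markers Cd3e, Cd79a and Nkg7 were at or below 0.21 CPM on average and did not pass. Summed CPM of the list were 717 to 768 in WT and 1030 to 1120 in cKO, while summed CPM of the 8 class I genes listed by role were 775 to 795 and 980 to 1166. Lyz2 alone made up 594 to 662 CPM of the cKO sums. The part of leukocytes in the class I differences was not tested.

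**Figure D5:**
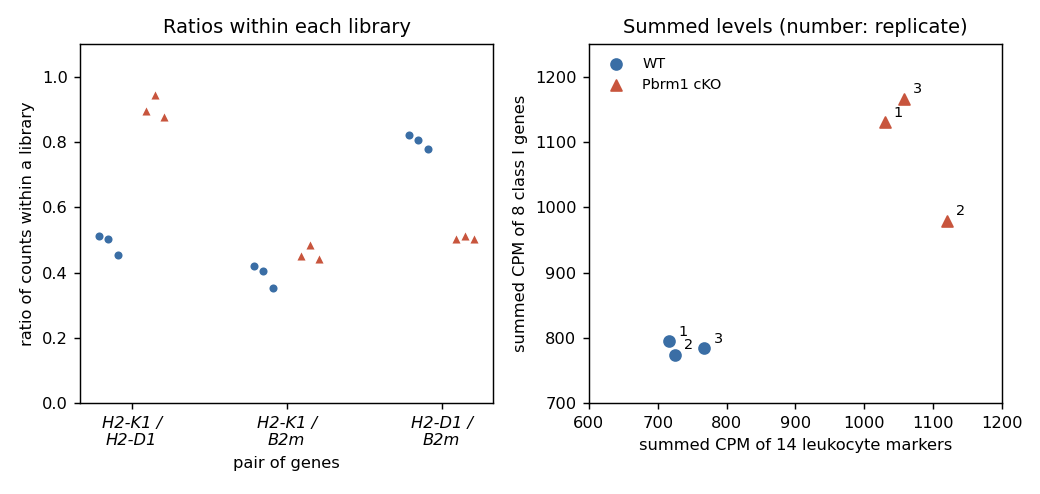
Left, ratios of counts within each library for 3 pairs of genes (y axis), with WT as circles and Pbrm1 cKO as triangles; H2-K1 over H2-D1 lies at 0.453 to 0.513 in WT and 0.875 to 0.945 in cKO. Right, summed CPM of the 8 class I genes listed by role against summed CPM of 14 leukocyte markers, with replicate numbers; both sums are higher in all cKO libraries than in any WT library.

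Other marker lists moved as well, beside 21.9% of all tested genes called higher and 21.8% lower. Smooth muscle markers were called higher in 5 of 8 and lower in 1, fibroblast markers higher in 3 of 6 and lower in 1, epithelial markers higher in 5 of 8, endothelial markers higher in 1 of 6 and lower in 1, and mesothelial markers lower in 3 of 4. Their summed CPM went from 3450 to 4477 for smooth muscle, 3765 to 4762 for fibroblasts, 971.5 to 1111 for epithelium, 359 to 285 for endothelium and 150 to 98.5 for mesothelium. The fall of the endothelial sum rested on Kdr, which went from 181.5 to 99.3 CPM on average. For 2 of the 6 endothelial markers every cKO library exceeded every WT library. The part of these lists in the class I differences was not tested.

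Genes on chromosome 17 within the span of the heavy chain genes, from 33974831 to 37483552, were counted with the heavy chain genes left out. Of 96 tested, 48 were called (50%), 31 higher and 17 lower, and the median log2 fold change was -0.03. Tap1, Tap2, Psmb8 and Psmb9, described above, are among the 96, and all but Tap2 were called higher. With 1 Mb added on each side the share called was 48.4%, and over all tested genes it was 43.7%. Across all genes at a mean of 5 CPM or more outside the lists, those whose log2 CPM followed B2m most closely over the 6 libraries were Ifi204 (Pearson r = 0.9994), Tdrd7 (0.9990) and Irgm2 (0.9988). Ifi204 and Irgm2 belong to families of interferon-inducible genes. Irgm2 averaged 12.4 ± 1.16 CPM in WT against 41.4 ± 9.62 in cKO (SD, n = 3). This is a description over 6 libraries that fall into 2 groups, and 1237 of 10932 genes compared had an r above 0.95.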

How the data were processed

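RNA-seq libraries of 3 WT and 3 Pbrm1 cKO samples were analysed. The authors deposited 1 table of raw whole-number counts per gene. Per the file headers, cutadapt-trimmed alignments were counted with featureCounts 1.6.4 in reverse-stranded mode on GENCODE M18. Its default settings skip multi-mapping reads, so reads inside sequence shared by heavy chains were lost. The submitters' processing notes name HISAT2 and GRCm38; read length is stated only for the study's uterine libraries (single-end, 50 bases), made with another kit. Symbols came from GENCODE M21 (54079 of 54232 genes, 99.7%). The quasi-likelihood F-test of edgeR 4.0.16 was run in R 4.3.3 (two-sided, TMM scaling, filterByExpr), with Benjamini-Hochberg adjustment over 15376 genes and a threshold of 0.05. CPM used the same factors. Intervals and floors cover counting error only. Replicates differed by more than sampling noise (chi-square per gene 1.28 to 1.59). The test was checked on simulated data with few changed genes, all well counted, and the same spread setting for every gene. That check does not cover low counts or a contrast with this many calls.

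The 10 genes, the gene lists and the tests were chosen with earlier results of these data known; the 12 regulators leave out 1 further gene, which is not reported here. Named by rule were the 10 genes, every heavy chain gene that passed the filter, the called genes of the other pathway lists, Pbrm1, Ptprc, Acta2, Myh11 and the 3 genes most like B2m. Uncalled list members, H2-Q1, H2-Q3, Gm18733, Gm11131, Lyz2, Kdr and 3 lymphocyte markers were named outside that rule, after their values were seen. Alternatives were DESeq2 1.42.0, limma-voom (limma 3.58.1), RLE factors in edgeR, library size only, no filter, at least 10 counts in every library, omission of each library in turn, and a block on the replicate number. Similar sequences were found by exact matches of 75 bases (50 and 100 as alternatives) among GENCODE M21 transcripts, BLAST 2.17.0 and MAFFT 7.526.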

Additional observations from a re-analysis of the deposited data

How the results depend on the processing

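Between 5532 and 7054 genes were called when 1 library was left out at a time, against 6723 with all libraries. DESeq2 called 5535, limma-voom 6690, edgeR scaled by library size alone 6662, edgeR on all genes with a count 6925, and edgeR on genes with 10 or more counts in each library 6404. Peptide loading genes called ranged from 1 to 3 when single libraries were omitted, with 3 without cKO replicate 2. H2-D1 changed direction without cKO replicate 2 (log2 fold change 0.012, range -0.110 to 0.012), as did H2-T24 (0.194, range -0.205 to 0.194) and Tapbpl (0.001, range -0.203 to 0.001). Under the same omissions H2-Q4 ranged from -0.099 to 0.157, H2-Q6 from -0.104 to 0.091 and Pdia3 from -0.084 to 0.009. These 6 genes were called under no alternative. The cause was not tested. Of 647 values over 50 genes, 20 lost their call and 2 gained one. No scaling put the median of all genes further than 0.0174 from 0 (log2). Replicate numbers were not treated as pairs, since deviations of same-numbered libraries correlated at -0.0204, 0.0346 and 0.0873; a block on the number gave 6908 called genes and again 6 of the 8 genes listed by role. H2-Q2, H2-Q5, H2-K2 and H2-M9 had too few counts for the filter of 10 per library. Depth limits H2-Q1 and the cKO values of H2-Q2, which rest on few counts.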
